A study of Mus musculus with 4 samples.

Results

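Heat shock proteins, their J-domain partners and the cold-shock RNA-binding proteins Cirbp and Rbm3 were followed in the spinal cord of nerve-injured mice. They were picked by gene name alone: Hspa, Hspb, Hspd, Hspe, Hsph, Dnaja, Dnajb or Dnajc followed by a digit, names that start with Hsp90, and Cirbp and Rbm3. This gave 73 genes with 113 probes, of 30222 gene names with 39429 probes on the array. The mice were male ICR mice, an outbred stock, 5 to 6 weeks old, and all of them had partial sciatic nerve ligation (PSL), an injury that makes the hindpaw hypersensitive to touch. On day 7 after injury, RNA was taken from the lumbar spinal cord at ZT10, late in the light phase, or at ZT22, late in the dark phase. The mice had either a sham operation on the adrenals (sham+PSL) or removal of the adrenal glands (ADX+PSL), which takes away the source of corticosterone and of its daily rhythm, and the ADX mice drank saline. Each of the 4 conditions, sham+PSL ZT10, sham+PSL ZT22, ADX+PSL ZT10 and ADX+PSL ZT22, was measured on 1 array, with all 4 arrays on 1 slide. The number of mice behind each RNA and the side of the cord are not given in the sources used here.

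Chaperones of the Hsp70 family hold unfolded stretches of protein in a cycle of ATP binding and hydrolysis. J-domain proteins (DnaJ) bring the substrate and trigger hydrolysis, and Hsp110 proteins and other exchange factors release the nucleotide. Hsp90 completes the folding of clients such as kinases and steroid receptors, among them the glucocorticoid receptor, Hsp60 with Hsp10 folds proteins in mitochondria, and small heat shock proteins hold aggregating proteins without ATP. Many cytosolic members are driven by heat shock factor 1 through heat shock elements, those of the endoplasmic reticulum by the unfolded protein response. Cirbp and Rbm3 go the other way with temperature: their mRNAs rise with mild cooling and fall with warming, and in many tissues they follow the daily rhythm of body temperature.

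Levels are the quantile-normalized intensities of the authors' table, listed below in the order sham+PSL ZT10, sham+PSL ZT22, ADX+PSL ZT10 and ADX+PSL ZT22. A gene was read on its brightest probe, and levels of different probes are not set against each other. With 1 array a condition, no test between conditions was run, and every difference between 2 arrays includes the difference between the mice behind them. The error that the scanner software gives for a spot amounts to about 0.20 on a log2 ratio of 2 arrays, whereas probes printed 10 times had a median SD of 0.044 to 0.060 between spots of 1 array. Both leave out the spread between animals. A gene was counted as different between 2 arrays at a ratio of 1.5 or more, with the brighter array well above background.

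Of the 113 member probes, 99 (87.6%) were well above background on all 4 arrays, against 63.4% of all probes, 5 on 1 to 3 arrays and 9 on none. By brightest probe these were 66, 2 and 5 genes. The 5 genes not well above background on any array were Dnajb7, Dnajc22, Dnajc5b, Dnajc5g and Hspb7, and the 2 that were so on some arrays were Dnajb13 and Hspa1l. No spot was saturated. All neuronal, astrocytic and oligodendrocytic marker genes listed were detected. Other tissue moved between the arrays: the 10 meningeal fibroblast markers had a median log2 ratio of ADX+PSL over sham+PSL of -2.16 at ZT10 and -2.12 at ZT22, and their summed level was 16430 to 19050 in sham+PSL against 5490 to 6010 in ADX+PSL. The 8 erythroid markers summed to 18780 in sham+PSL ZT22 and to between 89820 and 135900 on the other arrays, with 2 of the 8 not above background. Of the 14 fast muscle markers, most of those detected were highest in sham+PSL ZT10, with a median log2 ratio over ZT22 of 1.17 in the 9 measured. Casq1 was highest in ADX+PSL ZT10 and Pvalb in ADX+PSL ZT22, and Myh1, Myh2 and Mylpf were not above background. In tissue RNA of this kind, fewer cells of a type and less RNA per cell cannot be told apart.

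Most chaperone mRNAs lay close together on all 4 arrays. Of the genes that could be read in all 4 comparisons, 59 passed 1.5-fold in none of them, and by brightest probe no member passed 2-fold in any. Between ZT10 and ZT22 in sham+PSL mice, 1 of 67 members was higher, where 3.74% of all genes were, and none was lower, where 5.34% were. In ADX+PSL mice, none of 68 members was higher at ZT10, against 2.72% of all genes, and 2 were lower, against 4.08%. Between operations at ZT10, 1 of 68 members was higher in ADX+PSL (4.6% of all genes) and 3 were lower (5.19%). At ZT22, 2 of 66 were higher in ADX+PSL (4.23%) and none was lower (4.44%). The 2-fold backgrounds, higher and lower, were 1.59% and 2.07% for time in sham+PSL, 0.917% and 1.9% for time in ADX+PSL, 1.46% and 2.37% for operation at ZT10, and 1.46% and 1.84% for operation at ZT22. No member passed 1.5-fold with time under both operations on its brightest probe, in the same direction (1.23% of all genes) or in opposite ones (0.717%); over probes, 1.18% of all probes did so in the same direction, the dimmer of the bright Rbm3 probes among them. Among the 45 members with a mean level of 1000 or more, 0, 1, 2 and 0 passed in the 4 comparisons, time in sham+PSL and ADX+PSL first, where 2.69%, 1.51%, 2.42% and 1.98% of all such genes did. The counts of members are near or under these shares and single out no condition. The median log2 ratios of the members were 0.02 and 0.06 for ZT10 over ZT22 in sham+PSL and ADX+PSL, and 0.03 and 0.02 for ADX+PSL over sham+PSL at ZT10 and ZT22, where all genes had medians between 0.00 and 0.01. The SD of the members' log2 ratios was 0.20 to 0.25, of the size of the spot error.

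The direction with time was less even than the sizes. In 19 of 66 members (28.8%) both ZT10 arrays lay above both ZT22 arrays, where 17.5% of all genes did so, and in 5 (7.58%) both lay below, where 15.9% did. The 19 came from several classes: 3 of 4 Dnaja genes, 3 of 5 cytosolic Hsp70 and Hsp110 genes, both Hsp60/Hsp10 genes, 4 of 11 Dnajb genes, and 2 of 25 Dnajc genes. Neither this count nor that of all genes takes account of size. In sham+PSL, most of the 19 had time ratios under the spot error of about 0.20. The 3 Dnaja genes, Dnaja1, Dnaja2 and Dnaja4, had 0.08, 0.01 and 0.05, and Hspa9 and Hspa14 had 0.01 each. With scaling by the 75th percentile in place of quantiles, 13 members (19.7%) lay above, against 15.8% of all genes, a smaller excess, and 5 (7.58%) lay below, against 17.2%. With operation the members did not stand out: both ADX+PSL arrays lay above both sham+PSL arrays in 12 (18.2%, all genes 19.2%) and below in 10 (15.2%, all genes 15.7%).

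**Figure D1:**
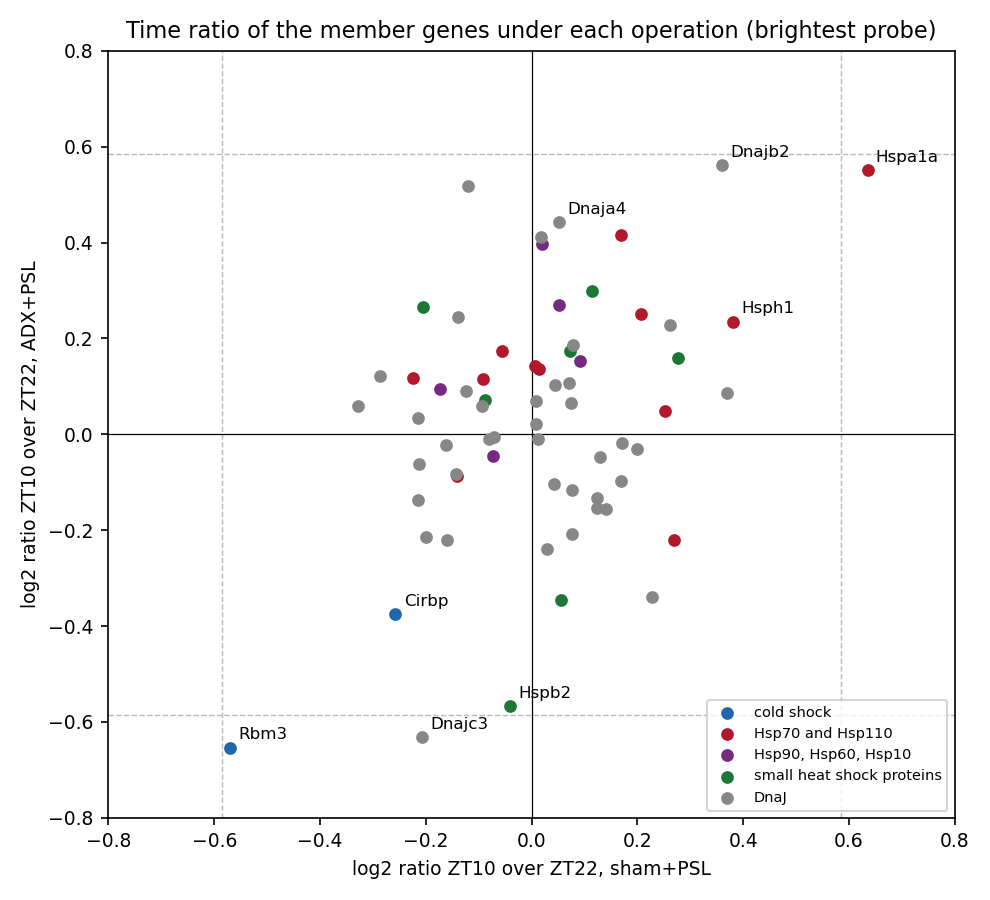
Log2 ratio of ZT10 over ZT22 for 66 member genes on their brightest probe, in sham+PSL (x axis) and in ADX+PSL (y axis), coloured by class; dashed lines mark a 1.5-fold ratio. Hspa1a lies at 0.64 and 0.55 in the upper right corner, Rbm3 at -0.57 and -0.65 in the lower left, and most members lie near 0 on both axes.

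The cold-shock genes were lower at ZT10 than at ZT22 under both operations, and lower in ADX+PSL than in sham+PSL at both times on their brighter probes. Rbm3, which binds RNA and supports translation and synapse upkeep in the cold, has its brightest probe at chrX:7719656-7719715 (mm9, minus strand). Its levels were 6104, 9067, 4337 and 6821. Both ZT22 arrays lay above both ZT10 arrays, and the ADX+PSL array was the lower one at each time. ZT10 over ZT22 gave a log2 ratio of -0.57 under sham+PSL and -0.65 under ADX+PSL, and that of ADX+PSL over sham+PSL was -0.49 at ZT10 and -0.41 at ZT22. A further Rbm3 probe, at chrX:7720785-7720844, gave 2832, 4313, 2074 and 3716, with time ratios of -0.61 and -0.84. The order of the 4 arrays was the same on both. The other Rbm3 probe was well above background on 1 array only. The probe at chrX:7720785-7720844 is shown because it reads a part of the transcript with an open reading frame, away from the brightest probe:
Rbm3: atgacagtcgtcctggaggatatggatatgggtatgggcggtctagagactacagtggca

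Cirbp, the cold-inducible RNA-binding protein, regulates transcripts of the clock, among others. The levels of its bright probe, at chr10:79634274-79634333 (mm9, plus strand), were 7245, 8661, 4731 and 6137. Both ADX+PSL arrays lay below both sham+PSL arrays, and within each operation ZT10 lay below ZT22. Its log2 ratios were -0.26 and -0.38 with time, in sham+PSL and ADX+PSL, and -0.61 and -0.50 for ADX+PSL over sham+PSL, at ZT10 and ZT22. The dimmer probe, at chr10:79635422-79635481, gave 440.1, 511, 361 and 734. With time it went the same way, by -0.22 under sham+PSL and -1.02 under ADX+PSL, the latter past 2-fold, but at ZT22 it was higher in ADX+PSL than in sham+PSL, with a log2 ratio of 0.52. The operation difference of Cirbp at ZT22 thus rests on which probe is read, whereas both probes had the same sign with time and with operation at ZT10. The microglial markers also moved with time: all 8 were lower at ZT10 under sham+PSL, and 7 of them under ADX+PSL, with median log2 ratios of -0.43 and -0.31 and summed levels of 75290 and 77960 at ZT10 and of 95050 and 82920 at ZT22, none at background. They also moved with operation, with medians for ADX+PSL over sham+PSL of -0.23 at ZT10, where 6 were lower, and -0.37 at ZT22, where 7 were lower. Fibroblast markers moved with operation as given above. The part of either in the Rbm3 and Cirbp values was not tested.

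**Figure D2:**
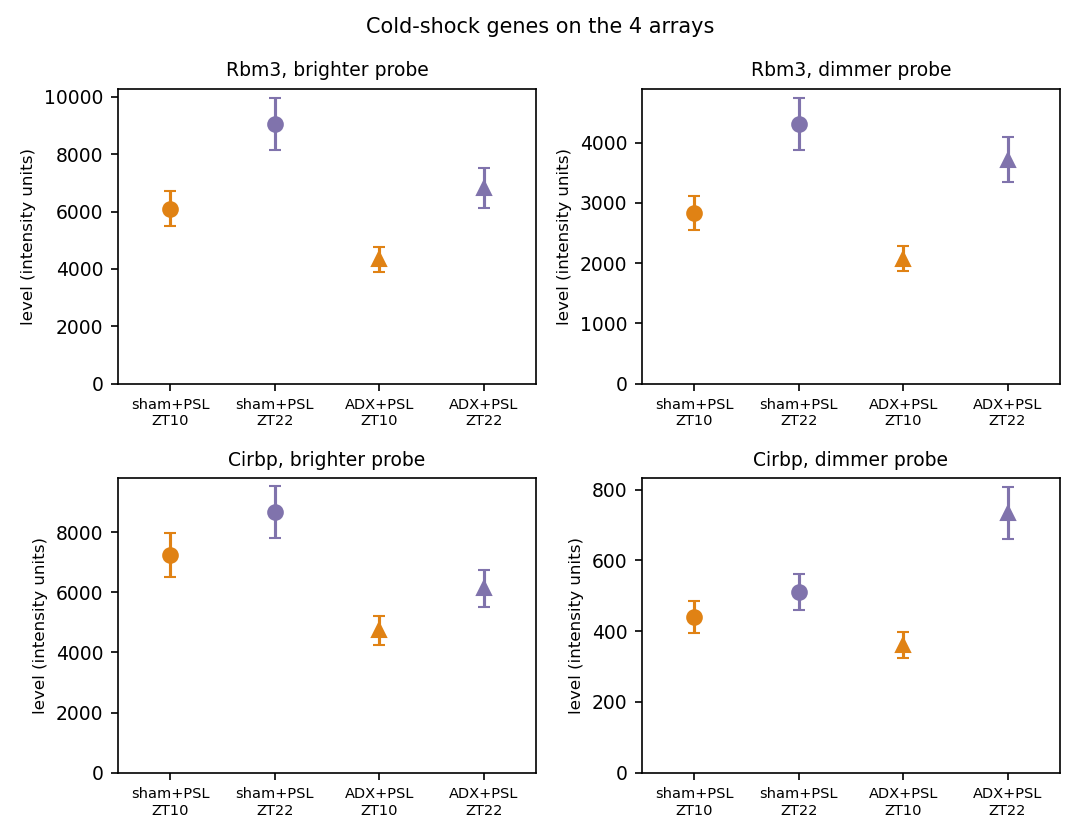
Levels of the Rbm3 and Cirbp probes that were well above background on all arrays (y axis, intensity units from 0; circles sham+PSL, triangles ADX+PSL, orange ZT10, purple ZT22; bars, the scanner software's error of the spot, 1 array each). Both Rbm3 probes and the bright Cirbp probe are lowest in ADX+PSL ZT10 (4337, 2074 and 4731), and the dim Cirbp probe is highest in ADX+PSL ZT22 (734).

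The inducible cytosolic Hsp70 ran opposite to Rbm3 with time. Hspa1a and Hspa1b, neighbouring genes with nearly the same coding sequence, are the classical targets of heat shock factor 1. The array has 1 probe for both, named Hspa1a, at chr17:35107117-35107176 (mm9, minus strand), which lists transcripts of both genes, so their levels cannot be separated. It was dim, with levels of 132, 85.1, 191 and 130.1. For ZT10 over ZT22 the log2 ratio reached 0.64 under sham+PSL and 0.55 under ADX+PSL, and that of ADX+PSL over sham+PSL was 0.53 at ZT10 and 0.61 at ZT22. Both ZT10 arrays lay above both ZT22 arrays, the ZT10 array of sham+PSL only just so, and the ADX+PSL array was the higher one at each time. This was the 1 member counted as higher at ZT10 in sham+PSL, and 1 of 2 counted as higher in ADX+PSL at ZT22. Under background correction by normexp or with the mean signal, which pull dim probes together, its 4 ratios lay between 0.31 and 0.42, and none passed 1.5-fold. Erythroid markers were lowest in sham+PSL ZT22 too; their part was not tested. The probe lies in a stretch with an open reading frame:
Hspa1a probe: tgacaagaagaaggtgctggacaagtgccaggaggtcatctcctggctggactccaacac
The promoters of Hspa1a and Hspa1b (RefSeq, GRCm38.p6) differ in 3 of 250 bases before the start. By brightest probe, Hspa1a had the largest time ratio in sham+PSL of the members. Its promoter is therefore shown from chr17:34972157-34972276 (minus strand), ending at the start site, with the 2-unit heat shock element in capitals:
Hspa1a promoter: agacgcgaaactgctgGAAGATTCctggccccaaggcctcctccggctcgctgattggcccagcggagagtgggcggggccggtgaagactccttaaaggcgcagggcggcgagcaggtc

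Hsph1, the Hsp110 that exchanges nucleotide on Hsp70 and keeps aggregates soluble, had the order of the arrays seen for Hspa1a on both of its probes. The levels were 14496, 11137, 15533 and 13197 on the brightest, at chr5:150419744-150419803 (mm9, minus strand), and 5099.9, 4319, 5922 and 4916 on the other, at chr5:150420110-150420169. The log2 ratios with time were 0.38 and 0.24 on the first and 0.24 and 0.27 on the second, in sham+PSL and ADX+PSL. The second probe is the one within an open reading frame:
Hsph1 probe: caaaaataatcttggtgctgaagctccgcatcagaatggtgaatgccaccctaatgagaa

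Hspa8, the constitutive Hsp70 that also strips clathrin from vesicles, gave different answers on its 3 probes. The brightest had levels of 78038, 86073, 94030.3 and 99872, with both ADX+PSL arrays above both sham+PSL arrays. A second, with levels of 22328, 16810.2, 22876 and 18958, had both ZT10 arrays above both ZT22 arrays. The third, with levels of 45024, 42072, 47604 and 46949.9, again put both ADX+PSL arrays higher. The sham+PSL time ratio was therefore -0.14, 0.41 or 0.10, by probe. The relatives of Hsph1 that exchange nucleotide on Hsp70, Hspa4 and Hspa4l, had time ratios of 0.17 and 0.42, and of 0.21 and 0.25. Hspa4 had 2 further probes, with time ratios between -0.00 and 0.15. The testis-enriched Hspa2 had -0.22 under sham+PSL and 0.12 under ADX+PSL.

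Of the 66 members, 6 shared the order with ADX+PSL ZT10 highest, then sham+PSL ZT10, ADX+PSL ZT22 and sham+PSL ZT22. They were Hspa1a, Hsph1, Hspa4l, Hspd1, Dnaja1 and Dnajb2 (9.09%), where 4.07% of all genes have this order. The reverse order, with sham+PSL ZT22 highest and ADX+PSL ZT10 lowest, was held by Rbm3 and Dnajb12, 2 of 66 (3.03%), where 4.19% of all genes have it. Both orders were picked after the values were seen. Dnajb2, a J-domain protein enriched in neurons that hands clients to the proteasome, had levels of 5787, 4509, 6728 and 4559.7, with time ratios of 0.36 and 0.56, and 0.17 and 0.27 on its dimmer probe. For Dnajb12, which is anchored in the membrane of the endoplasmic reticulum, the levels were 828, 962, 809 and 890.3. Neuronal markers were also somewhat higher at ZT10, with median log2 ratios of 0.13 and 0.14 and both ZT10 arrays on top in 5 of 10; the part of this was not tested.

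**Figure D3:**
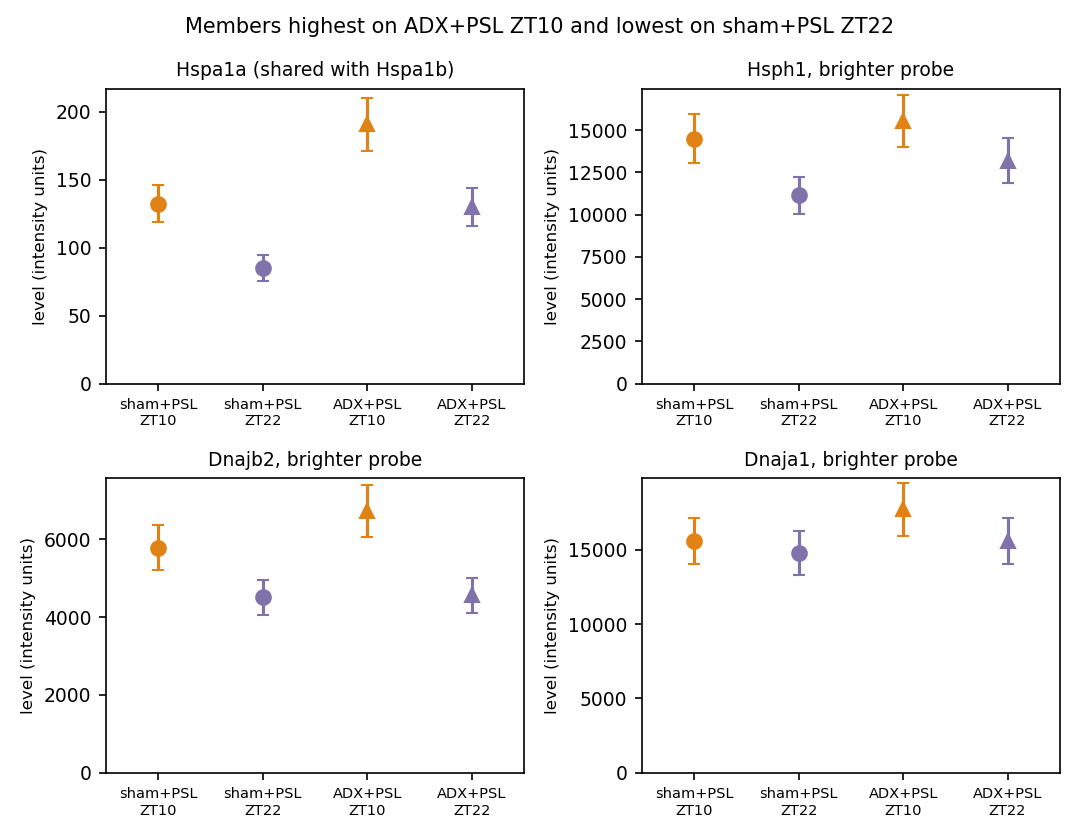
Levels of Hspa1a, Hsph1, Dnajb2 and Dnaja1 on the 4 arrays (y axis, intensity units from 0; circles sham+PSL, triangles ADX+PSL, orange ZT10, purple ZT22; bars, the scanner software's error of the spot, 1 array each). On the brightest probes shown, each is highest in ADX+PSL ZT10 and lowest in sham+PSL ZT22. Hspa1a spans 85.1 to 191, and Dnaja1 only 14774 to 17726.

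The members on a list of heat shock factor 1 targets leaned to ZT10 in direction. The list also holds Hspa8 and Hsp90ab1, which are constitutive, and their arrays overlapped by time on the brightest probe. Of the 10 listed members on the array, 7 had both ZT10 arrays above both ZT22 arrays and none had them below (17.5% and 15.9% of all genes). Their median log2 ratio of ZT10 over ZT22 was 0.06 under sham+PSL and 0.21 under ADX+PSL. Among the 7, only Hspa1a and Hsph1 had sham+PSL time ratios above the spot error. Those of Dnajb1, Hspe1, Hsp90aa1, Dnaja1 and Hspd1 were 0.02, 0.02, 0.05, 0.08 and 0.09, under it. Under some alternatives of processing the ratios of Dnajb1, Hspe1 and Hsp90aa1 turned negative, down to -0.004, -0.18 and -0.03. Only Hspa1a of the list passed 1.5-fold on its brightest probe, and a further Hspe1 probe passed with operation at ZT10. The list shares the single Hspa1a probe for Hspa1a and Hspa1b. Dnaja1, a main cytosolic partner of Hspa8, had levels of 15589, 14774, 17726 and 15582, with time ratios of 0.08 and 0.19. Its dimmer probe, at 213, 221, 223 and 210, had time ratios of -0.05 and 0.08, and its arrays overlapped by time. Dnajb1, the canonical Hsp40, gave 11793, 11647, 14604 and 10976, so that its time ratio under sham+PSL was 0.02 and under ADX+PSL 0.41. Only ADX+PSL ZT10 stood above the rest. Dnaja4, which is not on the list, looked alike on its brightest probe, at 3585, 3458, 4589 and 3378. Its dimmer probe did not, at 122, 90.7, 115 and 94.6, with time ratios of 0.43 and 0.28. Hsp90aa1, the inducible cytosolic Hsp90, gave 41038, 39599.8, 45154 and 37479. Hsp90ab1, the constitutive one, gave 78767, 88862, 84500.3 and 79199.5, and its arrays overlapped both by time and by operation. Hspb1, a small heat shock protein that rises in injured neurons and in reactive glia, gave 19946, 18958, 18377 and 16287, with both ADX+PSL arrays below both sham+PSL arrays.

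Hspd1 (Hsp60) and Hspe1 (Hsp10) form the mitochondrial folding chamber and are transcribed away from each other out of 1 shared promoter. Hspd1 had levels of 13335, 12522, 14084 and 12676, and time ratios of 0.09 and 0.15. Hspe1 had 18995, 18744, 20097 and 15267, and time ratios of 0.02 and 0.40. Both had both ZT10 arrays on top, by little in sham+PSL. A second bright Hspe1 probe, with 14737, 15200.4, 15722 and 12000.1, reads nearly the same bases as the first and had a time ratio of 0.39 in ADX+PSL and of -0.04 in sham+PSL. The remaining, dim probe had -0.51 and 0.22.

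The promoters were searched for heat shock elements in the RefSeq windows of 250 bases before to 50 after the start (GRCm38.p6), which were at hand for 58 of the 73 members. The element is built of units GAA in alternating orientation, with 2 bases of any kind between neighbouring units, and both strands and either first orientation were searched. A run of 3 units was found in 4 of the 58 (6.9%), where 0.662% of all 27025 genes have it. They were Hspd1, Hspe1, Hsph1 and Dnajb6. A run of 2 units, which every 3-unit element contains, was found in 15 (25.9%), where 17.0% of all genes have it, Hspa1a, Hspb1 and Dnaja1 among them. Neither was found in the windows of Cirbp. Of the 4 genes with the 3-unit element, Hspd1, Hspe1 and Hsph1 had both ZT10 arrays above both ZT22 arrays on the brightest probe, and Dnajb6 did not. This held for 17.5% of all genes. Hspe1 did so by a log2 ratio of only 0.02 in sham+PSL. Dnajb1, which also had both ZT10 arrays on top, had neither element in its window. A link between the element and the time ratio was not tested. Hspd1 and Hspe1 share 285 of the 300 bases, and thereby 1 run of 4 units that counts as 2 overlapping matches in each. It is shown with the Dnajb6 element and a short stretch of Hsph1, where the element lies after the start, with the elements in capitals. The positions are chr1:55088018-55088117 (plus strand) for Hspe1, chr5:29735798-29735897 (plus strand) for Dnajb6 and chr5:149636287-149636316 (minus strand) for Hsph1:
Hspe1: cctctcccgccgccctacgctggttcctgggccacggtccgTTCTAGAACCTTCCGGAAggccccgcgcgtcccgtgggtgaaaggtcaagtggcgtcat
Dnajb6: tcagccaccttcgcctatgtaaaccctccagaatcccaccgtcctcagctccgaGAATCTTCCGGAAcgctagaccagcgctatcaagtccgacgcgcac
Hsph1: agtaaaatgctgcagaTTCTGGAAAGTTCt

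The 7 members on a list of endoplasmic reticulum stress genes differed by operation more than by time in their medians, at sizes near or under the spot error of about 0.20. Their median time ratios were -0.07 in sham+PSL and -0.01 in ADX+PSL. Of 7, 4 had both ADX+PSL arrays above both sham+PSL arrays and 1, Hspa13, had them below (19.2% and 15.7% of all genes), with median log2 ratios of ADX+PSL over sham+PSL of 0.21 at ZT10 and 0.16 at ZT22. Hspa5 (BiP), the Hsp70 of this compartment, had levels of 13622, 14165, 18952 and 16790.3, with operation ratios of 0.48 and 0.25. Hsp90b1 (Grp94), its Hsp90, had 14142, 14882, 16778 and 17304, with operation ratios of 0.25 and 0.22. The J-domain partners Dnajb11, with 3091, 3245, 3585 and 3600.0, and Dnajc10, with 2440.0, 2659.9, 2877 and 2703, had the same arrangement, although a dimmer Dnajc10 probe had the opposite one. The operation ratios at ZT10 and ZT22 were 0.21 and 0.15 for Dnajb11, and 0.24 and only 0.02 for Dnajc10. Dnajc3, a partner of BiP that also inhibits eIF2α kinases, had 514, 594, 579.8 and 899. Only ADX+PSL ZT22 stood out, with a log2 ratio of 0.60 over sham+PSL ZT22 and of -0.63 for ADX+PSL ZT10 over it. Dnajc3 was counted in both comparisons. Dnajb9, also on the list, had operation ratios of -0.03 and 0.16. Dnajb12 of the same compartment, not on the list, had -0.03 and -0.11. The arrays of both genes overlapped by operation.

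The wider unfolded protein response had the same lean in part. Of 18 partner genes of endoplasmic reticulum stress, 8 had both ADX+PSL arrays above both sham+PSL arrays and none had them below (again against 19.2% and 15.7%), with medians of 0.11 at ZT10 and 0.10 at ZT22, and none passed 1.5-fold in any comparison. Sdf2l1, a cochaperone of BiP, had levels of 561, 571, 836 and 828, with operation ratios of 0.58 and 0.54. Xbp1, the transcription factor of the response, had operation ratios of 0.58 and 0.26. Of the 18, 4 were lower in ADX+PSL at ZT10 and 6 at ZT22. Atf4 had operation ratios of 0.05 and -0.36, and Eif2ak3 of 0.29 and -0.24. These genes were named after their values were seen. Fibroblast markers were lower in ADX+PSL on the same arrays, and ependymal markers were higher in ADX+PSL, by a median of 0.52 at ZT10 and 0.24 at ZT22, and a summed level of 2453 to 2598 in sham+PSL against 3003 to 3454 in ADX+PSL; the part of either was not tested.

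**Figure D4:**
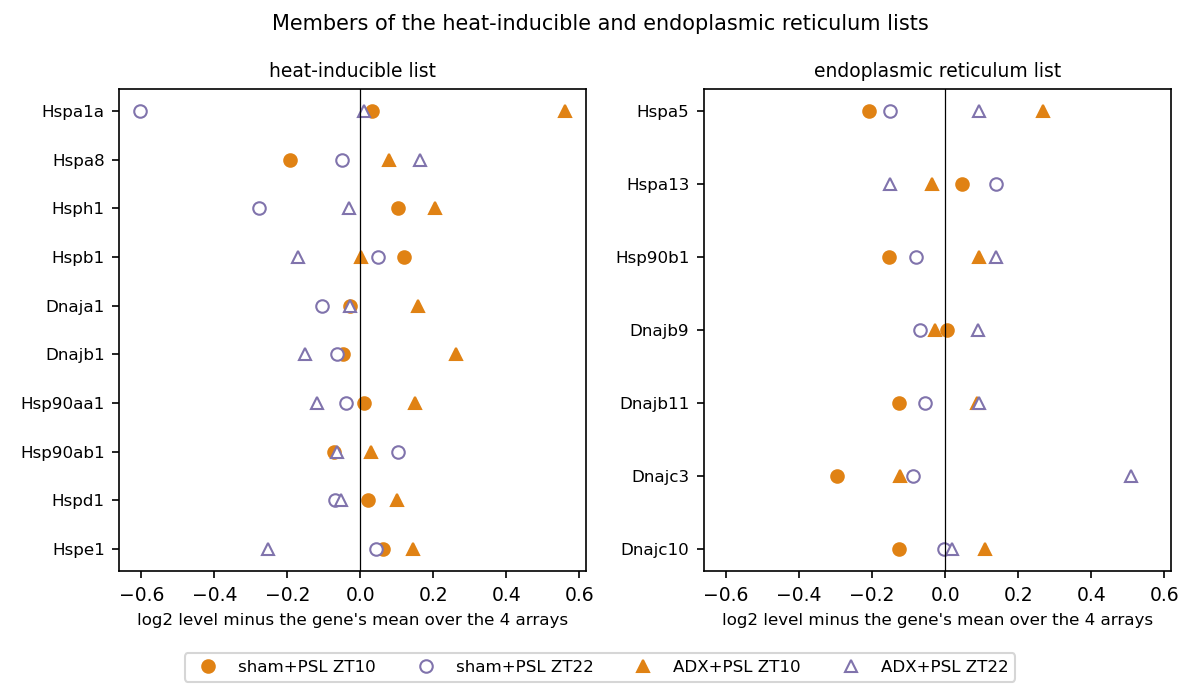
Log2 level minus the gene's mean over the 4 arrays (x axis). The 10 members listed as heat shock factor 1 targets (titled heat-inducible list, with the constitutive Hspa8 and Hsp90ab1 among them) are on the left. The 7 endoplasmic reticulum members are on the right. Filled symbols are ZT10, open symbols ZT22, circles sham+PSL and triangles ADX+PSL, 1 array each. On the left the filled symbols lie to the right of the open ones in 7 of 10 genes, and on the right the triangles lie to the right of the circles in 4 of 7.

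Of the remaining Hsp70 relatives, only Hspa12a passed 1.5-fold, with operation at ZT10. Hspa12a, an atypical member of nervous tissue, had levels of 1630.2, 1368, 1067 and 1031, with both ADX+PSL arrays below both sham+PSL arrays and operation ratios of -0.61 at ZT10 and -0.41 at ZT22. Hspa9 (mortalin), the mitochondrial Hsp70, had time ratios of 0.01 and 0.14, and Hspa14, which works at the ribosome, of 0.01 and 0.14. Hspa12b, known from endothelium, had time ratios of 0.27 under sham+PSL and -0.22 under ADX+PSL, and operation ratios of -0.14 at ZT10 and 0.35 at ZT22.

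Of the small heat shock proteins, 3 of 7 measured had both ADX+PSL arrays below both sham+PSL arrays: Hspb1, Hspb2 and Hspb8, where 15.7% of all genes did so. In 1, the dim Hspb9, both lay above, as in 19.2% of all genes. Hspb8, which with the cochaperone Bag3 feeds clients to autophagy, had levels of 2898, 2678, 2545 and 2068, with operation ratios of -0.19 and -0.37. Hspb2, best known from muscle, was dim, with levels of 124, 128, 77.0 and 114. Its operation ratio was -0.69 at ZT10 and -0.16 at ZT22, with ADX+PSL ZT10 as the 1 low array. The fast muscle markers had a median operation ratio of -1.13 at ZT10 and of -0.09 at ZT22. Most of those detected were highest in sham+PSL ZT10, where Hspb2 was not, and their part was not tested. Hspb9, a testis-enriched member, was also dim, at 73.6, 84.8, 110.4 and 91.8, and its ZT10 ratio of 0.58 lay right at the limit. Hspb6 had both ZT10 arrays on top, at 1614, 1333, 1531 and 1371. No log2 ratio of Hspb3 or Hspb11 lay further from 0 than the -0.34 of Hspb3 with time in ADX+PSL. Dnajc3, Hspa12a, Hspb2 and Hspb9 were named after their values were seen, because they passed 1.5-fold on their brightest probe.

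The J-domain proteins were the largest class, and nearly all of them were alike on the 4 arrays. The 4 Dnaja genes had time ratios between -0.10 and 0.44. The 11 measured Dnajb genes ranged from -0.22 to 0.36 under sham+PSL and from -0.14 to 0.56 under ADX+PSL by brightest probe. The 25 measured Dnajc genes had medians of 0.01 and -0.03 with time, and of -0.01 and 0.10 with operation. Dnajc5, the cysteine-string protein of synaptic vesicles, had 43912, 46459, 52524 and 52861 on its brightest probe, with both ADX+PSL arrays on top and operation ratios of 0.26 and 0.19. Its dimmer probes, with 496, 450.4, 459.8 and 451 on 1 of them, did not repeat this. The clathrin-uncoating partner Dnajc6 (auxilin) had time ratios of 0.07 and 0.11.

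Probes of 1 gene mostly gave like answers. Among the 25 members with 2 or more probes detected on every array, the range of the time ratio over a gene's probes had a median of 0.16 under each operation, where the 4744 such genes of the array had 0.17 in sham+PSL and 0.19 in ADX+PSL. The 5 largest ranges were those of Dnajb6 (1.91), Cirbp (0.65), Dnajc19 (0.59), Dnajc2 (0.57) and Hspa8 (0.55). Dnajc19, a part of the mitochondrial import motor, gave 2351, 2951, 2443 and 2346 on its bright probe and 288, 240.5, 281 and 281 on the other, with sham+PSL time ratios of -0.33 and 0.26. Dnajc2, which sits on the ribosome, gave 468, 543, 583 and 569 on its brightest probe and 25.0, 42.9, 22.8 and 24.8, close to background, on the other. Counting every probe rather than the brightest, 16 probes of 12 genes passed 1.5-fold in at least 1 comparison, and 3 probes of 2 genes, Dnajb6 and Cirbp, passed 2-fold. These were 15.4% and 2.88% of the 104 member probes whose brighter array was well above background in at least 1 comparison, where 19.2% and 7.71% of all such probes passed.

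Dnajb6, a J-domain protein that keeps polyglutamine and other amyloid-forming proteins from aggregating, was split between its probes. The upstream pair, at chr5:30080099-30080158 and at chr5:30077544-30078952 across an intron (mm9, plus strand), gave 1531, 1522, 1711 and 1687, and 554, 565, 648 and 608. These were flat with time, with ratios between -0.03 and 0.09. The downstream pair, at chr5:30112855-30112911 and chr5:30112861-30112920, gave 1616, 466, 509 and 1565, and 851, 231, 260.0 and 896. On this pair sham+PSL ZT10 and ADX+PSL ZT22 were high, and sham+PSL ZT22 and ADX+PSL ZT10 were low. ZT10 over ZT22 thus gave log2 ratios of 1.79 and 1.88 under sham+PSL, against -1.62 and -1.78 under ADX+PSL. Over all probes, 0.674% passed 1.5-fold with time in opposite directions under the 2 operations, and 0.443% of the genes with several probes had a range as large as that of Dnajb6. The downstream pair share 51 bases and list 1 and the same RefSeq transcript, which the upstream pair do not list, so they are no independent measurements of each other. The upstream probes and the first 30 bases of the run that the downstream pair share are printed to show which parts of the gene disagree:
Dnajb6 upstream, brighter: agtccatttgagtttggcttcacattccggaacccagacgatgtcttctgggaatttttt
Dnajb6 upstream, dimmer: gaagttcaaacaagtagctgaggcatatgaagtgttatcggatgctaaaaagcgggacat
Dnajb6 downstream, shared: caaggaggaatgtattttagtgctactgac

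**Figure D5:**
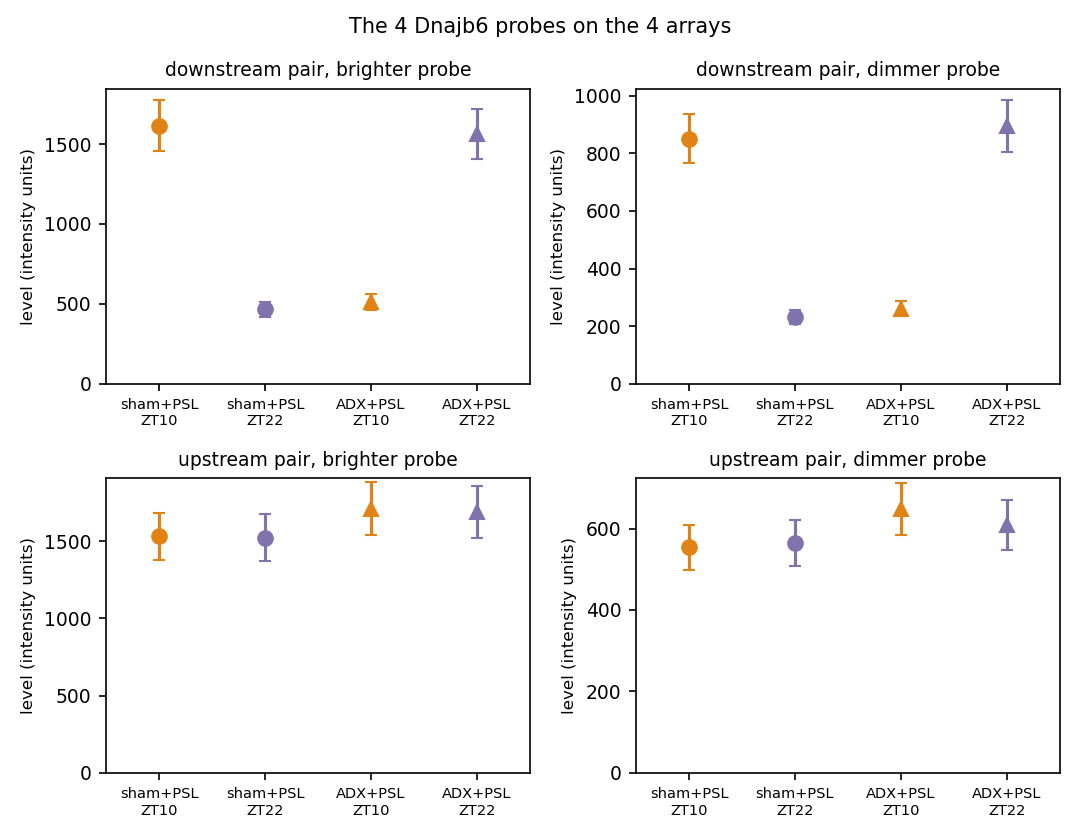
Levels of the 4 Dnajb6 probes on the 4 arrays (y axis, intensity units from 0; circles sham+PSL, triangles ADX+PSL, orange ZT10, purple ZT22; bars, the scanner software's error of the spot, 1 array each). The downstream pair (top) falls from 1616 to 466 and from 851 to 231 between ZT10 and ZT22 in sham+PSL and runs the other way in ADX+PSL, and the upstream pair (bottom) is flat with time.

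The partners of the chaperones followed the members at small size. Of 33 heat shock factors, exchange factors and Hsp90 cochaperones, 31 were well above background on all arrays, and 11 of these had both ZT10 arrays above both ZT22 arrays and 2 below (17.5% and 15.9% of all genes), with median time ratios of 0.09 and 0.05. Heat shock factor 1 itself had 1128, 963, 1169 and 1074, with time ratios of 0.23 and 0.12. Those past 1.5-fold were Fkbp4, an immunophilin of the glucocorticoid receptor complex, at 0.72 with time in sham+PSL only, with levels of 1487, 899.98, 1207 and 1112, the dim crystallin Cryaa, at 1.18 for ADX+PSL over sham+PSL at ZT10 and 0.69 with time in ADX+PSL, and Hspbap1, lower at ZT10 in sham+PSL and above background on 1 array; they were named after their values were seen, and none passed in both operations or at both times. The 8 subunits of TRiC, the cytosolic chaperonin, had medians of 0.11 and -0.05 with time. For comparison, among 15 clock genes on the same arrays, Nr1d1 had a time ratio of 1.02 under sham+PSL and of -0.75 under ADX+PSL, Dbp of 0.49 and -1.04, and Per1 of 0.50 and 0.41, and all 3 were named after their values were seen.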

How the data were processed

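Total RNA of lumbar spinal slices was labelled with Cy3 and hybridized to 60-base Agilent arrays, 1 array for each of 4 conditions. The authors extracted spot intensities with Agilent Feature Extraction (9.5.1.1 per the labels, 10.7.1.1 per the file headers) and deposited, beside the scanner intensity of each spot, a table of linear intensities, 1 value for each probe, with quantiles made equal across the arrays. Log2 of this table correlated with log2 of the scanner signal at 0.999 or more on each array. Of 44397 spots, 1377 were controls and were left out. The table gave the levels, and the scanner files gave the flags for well above background (for a probe printed several times, that of most of its spots), the spot errors, and probe coordinates and sequences; the coordinates are those of mm9.

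Log2 ratios were formed for 4 comparisons. Where the dimmer array was not well above background, it entered at the lowest level that was, or at its own level if higher, as a bound; where neither was, no ratio was given. A gene was read on its probe with the highest mean level. Precision is limited by the number of arrays; with 1 array per condition no test was run. Named were Hspa1a, Hspa1b, Hspa8, Hspa5, Hsph1, Hspb1, Dnaja1, Dnajb1, Hsp90aa1, Hsp90ab1, Hsp90b1, Hspd1, Hspe1, Cirbp and Rbm3, members past 1.5-fold with time in both operations in the same direction, members past 2-fold on any probe, the 5 genes with the largest disagreement of probes, and partners past 1.5-fold in both operations or at both times; other names were chosen after their values were seen. The members and the lists were chosen with earlier results of these data known. Alternatives were the scanner signal with quantile, 75th percentile or no normalization in limma 3.58.1 (R 4.3.3), normexp with offset 50, the mean signal without background correction, other filters on dim probes, the mean over a gene's probes and, chosen after the data were seen, a mean level of 1000 or more. Other steps used Python 3.11.15, numpy 2.4.6, pandas 2.3.3 and matplotlib 3.10.9. The steps for ratios and 1.5-fold calls were tested on simulated fold changes, with noise smaller than the spot error and no spread between animals. The counts by order of arrays, the probe ranges and the promoter search were not tested in this way. Promoters were those of RefSeq (GRCm38.p6). Promoters of Dnajc11, Dnajc12, Dnajc18, Dnajc2, Dnajc22, Dnajc30, Dnajc5, Dnajc5b, Hsp90aa1, Hsp90ab1, Hspa13, Hspa8, Hspa9, Hspb2 and Rbm3 were not used here.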

Additional observations from a re-analysis of the deposited data

Results flagged for a closer look

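The downstream Dnajb6 probes moved in opposite directions with time under the 2 operations. On one probe ZT10 over ZT22 gave a log2 ratio of 1.88 under sham+PSL and -1.78 under ADX+PSL, and 1.79 and -1.62 on the other, which overlaps it. Each is 1 array against 1 array, so the difference between the operations was not tested. The upstream probes of the gene were flat on the same arrays. Under the alternatives for the signal and the normalization, no sign of these ratios changed.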

How the results depend on the processing

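The counts of members past 1.5-fold in either direction were 1 and 2 with time in sham+PSL and ADX+PSL, and 4 and 2 with operation at ZT10 and ZT22, and with counts this small most shifts are of 1 or 2 genes. With normexp, and equally with the uncorrected mean signal, they were 0 with time in sham+PSL, 1 with operation at ZT10 and 0 at ZT22. Without a filter on dim probes they were 3 with time in sham+PSL and 4 with operation at ZT22. With the mean over a gene's probes they were 3 and 4 with time in sham+PSL and ADX+PSL. Among probes with a mean level of 1000 or more they were 0, 1, 2 and 0, where 2.69%, 1.51%, 2.42% and 1.98% of all such genes passed. The other 86 alternative values stayed within 1.5 times for counts, or within the spot error for medians. For the medians this limit is too wide to show stability, since they were far smaller than the spot error of a single probe. The sham+PSL time median of 0.02 was 0.002 with scaling by the 75th percentile and 0.09 without normalization, where all genes had -0.02 and 0.07. Of 584 alternative ratios of named genes, 555 moved by less than the spot error and 29 by more, and no ratio past 1.5-fold in the reported values changed sign. With the mean over its probes Dnajb6 went from 0.02 to -0.82 with time in ADX+PSL and from 0.16 to -0.75 with operation at ZT10. Without normalization between arrays, the median of all genes shifted by -0.11 with time in ADX+PSL and by 0.13 with operation at ZT22; members with both ZT10 arrays on top were then 13 (19.7%), against 12.8% of all genes. No paired analysis was possible because the conditions share only 1 replicate number, given in accession order, and leaving out an array ends its comparisons.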
